A study of Mus musculus with 2 samples.

Results

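The 6 mouse genes that encode the subunits and receptor chains of IL-23 and IL-12 were followed in imiquimod-treated skin. They are Il23a, Il12b and Il12a for the cytokine subunits and Il23r, Il12rb1 and Il12rb2 for the receptor chains. They were chosen by symbol, and all 6 were found among the 55353 gene symbols of the count matrices. The data are single-cell RNA counts of dorsal skin from 7-week-old C57BL/6 mice. The library called Shi-Bi-Man plus imiquimod came from skin that had Shi-Bi-Man together with imiquimod, and the library called imiquimod from skin that had imiquimod alone. Imiquimod, which activates Toll-like receptor 7 and is used to model psoriasis in mice, was thus present in each group. The labels do not say whether animals were pooled, and no skin without imiquimod was analysed here. The series title names the IL-23/Th17 axis as a question of the study. With 1 library in each group no difference had a replicate check, no test was run, and every 95% interval covers counting error only. Ratios are log2 of the level with Shi-Bi-Man plus imiquimod over that with imiquimod.

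IL-23 is a pair of the p19 chain, encoded by Il23a, and the p40 chain, encoded by Il12b, and a cell must make both chains to release it. IL-12 pairs the same p40 chain with p35, encoded by Il12a. The IL-12 receptor beta 1 chain (Il12rb1) is common to both receptors, and Il23r completes the IL-23 receptor while Il12rb2 completes that of IL-12. In mouse skin IL-23 is known for keeping IL-17-producing gamma delta T cells active, whereas IL-12 favours type 1 lymphocytes that make interferon gamma.

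Il12b, Il23r and Il12rb2 had most of their immune counts in different cells, so the DNA before their start sites is shown. The windows are the 250 bases before the RefSeq start in GRCm38.p6, 5' to 3' on the strand of the gene, and such windows were found for 4 of the 6 genes. The Il12b window is chr11:44399813-44400062 on the plus strand. The Il23r window is chr6:67491856-67492105 and the Il12rb2 window chr6:67376189-67376438, both on the minus strand. Capitals mark exact matches to short motifs picked after the windows were read.
Il12b: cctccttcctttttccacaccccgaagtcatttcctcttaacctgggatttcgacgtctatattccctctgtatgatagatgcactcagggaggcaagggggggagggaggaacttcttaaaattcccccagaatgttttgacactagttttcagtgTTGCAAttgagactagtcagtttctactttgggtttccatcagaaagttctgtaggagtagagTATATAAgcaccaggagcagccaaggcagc
Il23r: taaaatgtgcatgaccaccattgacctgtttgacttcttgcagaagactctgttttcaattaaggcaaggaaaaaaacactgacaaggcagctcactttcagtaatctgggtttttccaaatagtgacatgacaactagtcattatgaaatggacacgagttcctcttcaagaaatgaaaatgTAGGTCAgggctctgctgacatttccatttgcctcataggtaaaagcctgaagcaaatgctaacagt
Il12rb2: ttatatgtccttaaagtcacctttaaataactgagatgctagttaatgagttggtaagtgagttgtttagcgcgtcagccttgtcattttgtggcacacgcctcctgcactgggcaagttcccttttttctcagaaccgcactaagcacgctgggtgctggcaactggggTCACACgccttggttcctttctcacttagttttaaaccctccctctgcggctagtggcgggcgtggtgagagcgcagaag
In Il12b the capitals mark TTGCAA, a core bound by C/EBP factors, which begins 93 bases before the start. They also mark TATATAA, which begins 30 bases before the start and is the binding element of the basal transcription machinery. In Il23r the capitals mark TAGGTCA, the core bound by ROR nuclear receptors, which begins 67 bases before the start. In Il12rb2 they mark TCACAC, the core of T-box sites, which begins 80 bases before the start. The search covered both strands. TTGCAA was found in 5.28% of 32536 mouse windows of the same length, TATATAA in 3.02%, TAGGTCA in 2.24% and TCACAC in 12.1%. Each of the 3 windows held none of the motifs marked in the other windows. A match is a description of the letters and not a bound site.

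The genes lie on 5 chromosomes in GRCm38. Il23r (ENSMUSG00000049093, chromosome 6, 67422932 to 67491855) and Il12rb2 (ENSMUSG00000018341, chromosome 6, 67291318 to 67376188) are neighbours on the minus strand with 46743 bases between them. Il23a (ENSMUSG00000025383) is on chromosome 10 from 128296139 to 128298752, minus strand. Il12b (ENSMUSG00000004296) is on chromosome 11 from 44400063 to 44414033, plus strand. Il12a (ENSMUSG00000027776) is on chromosome 3 from 68690644 to 68698547, plus strand, and Il12rb1 (ENSMUSG00000000791) on chromosome 8 from 70808449 to 70821424, plus strand. Counts per gene do not separate exons from introns. In the GENCODE vM21 annotation Il12rb2 is the gene of the 6 that overlaps another, Serbp1 on the plus strand, by 6419 bases.

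The libraries held 8054 barcodes with 20837259 counts (Shi-Bi-Man plus imiquimod) and 11316 barcodes with 28920316 counts (imiquimod), and 7863 and 11019 cells were retained. They shared 49 barcode sequences. The doublet caller marked 83 cells with Shi-Bi-Man plus imiquimod and 0 with imiquimod, where it therefore failed. Clusters were named from marker genes and carry the ending -like. T and NK-like cells numbered 510 and 2516, macrophage and monocyte-like cells 760 and 1570, Langerhans-like cells 69 and 600, and keratinocyte-like cells of 5 kinds 2659 and 2187. The keratinocyte mix differed between libraries, with 1263 and 82 spinous-like cells, 189 and 1 granular-like cells, and 306 and 774 cells of the stress keratin kind.

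Each gene had most of its counts in a limited set of cells, and the set differed from gene to gene. Il12b sat in a few mature dendritic-like cells, Il23r and Il12rb1 mostly in T cells and Il23a mostly in keratinocytes. Il12rb2 sat in T cells, suprabasal keratinocytes and some antigen-presenting cells. T and NK-like cells held 55.0% of the Il23r counts with Shi-Bi-Man plus imiquimod and 83.2% with imiquimod, and keratinocyte-like cells 36.0% and 4.92%. Il12a was close to absent. Il23a had 75 counts in 59 cells with Shi-Bi-Man plus imiquimod, against 144 in 95 cells with imiquimod. Il12b had 18 counts in 2 cells, against 78 in 10 cells. Il12a had 14 counts in 11 cells, against 4 in 3 cells. Among the receptor chains, Il23r and the common chain Il12rb1 were scarcer with Shi-Bi-Man plus imiquimod and Il12rb2 more plentiful. Il23r had 111 counts in 83 cells with Shi-Bi-Man plus imiquimod, against 590 in 429 cells with imiquimod. Il12rb1 had 10 counts in 8 cells, against 69 in 62 cells. Il12rb2 had 219 counts in 162 cells, against 86 in 77 cells. How many cells of each class a library held and how much of the gene each cell held cannot be told apart in these totals.

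**Figure D1:**
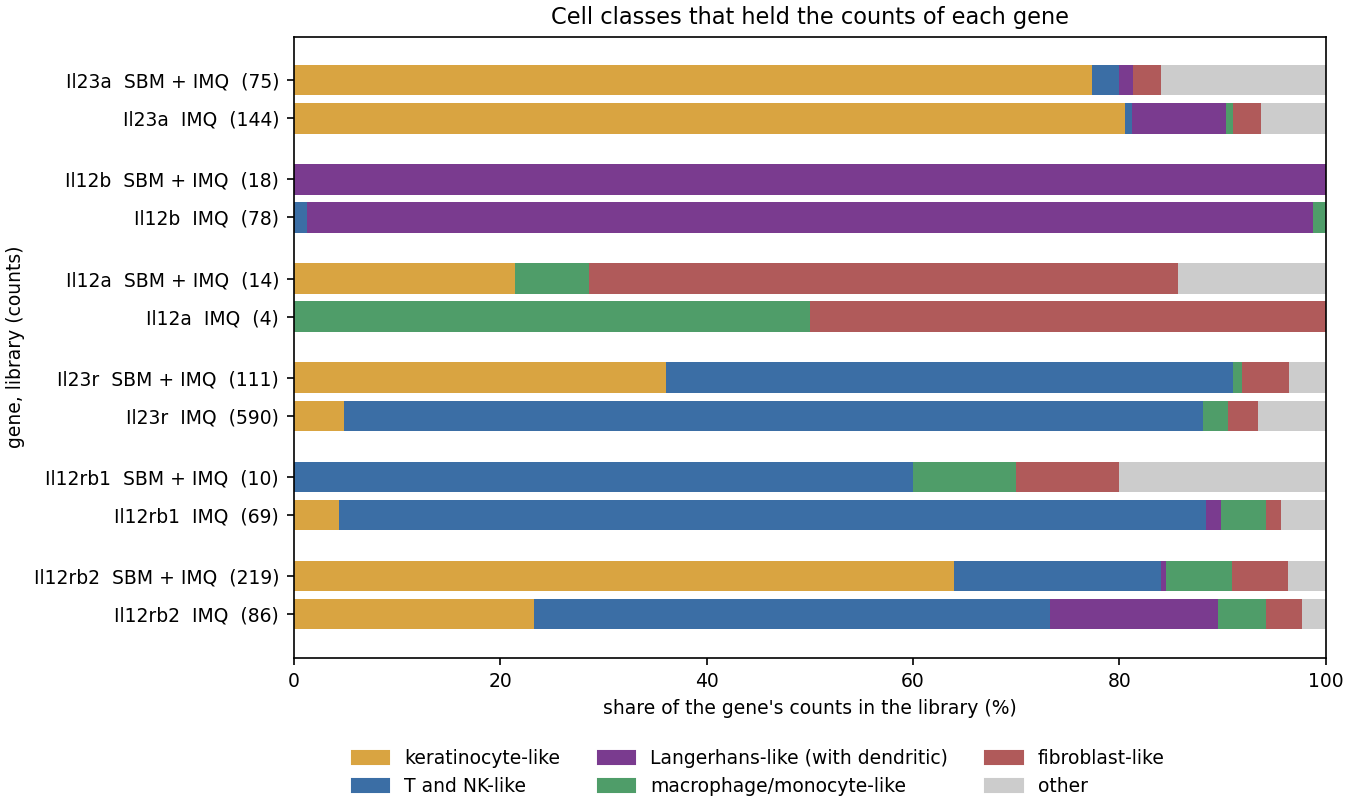
Share of each gene's counts (horizontal axis, percent) held by cell classes, with Shi-Bi-Man plus imiquimod (SBM + IMQ) above imiquimod (IMQ) and the counts in brackets. Il23a is mostly keratinocyte-like in each library, and 97.4% of the 78 Il12b counts of the imiquimod library are in the Langerhans-like class, which includes the mature dendritic-like cells.

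On the whole-library CPM scale (counts per 1000000 counts of all retained cells), 5 of the 6 genes had at least 20 counts over the libraries. Of these, 1 was at least 1.5-fold higher (Il12rb2) and 3 were at least 1.5-fold lower (Il12b, Il23r and Il12rb1). The Il12b value rests on 2 and 10 carrying cells, and in the Langerhans-like class that holds them the direction was the other one. Of all 18082 genes with at least 20 counts, 15% were higher and 13.7% lower by that rule. Il12rb2 stood at a log2 ratio of 1.82 (1.46 to 2.20), Il23r at -1.93 (-2.24 to -1.64) and Il12rb1 at -2.25 (-3.43 to -1.35). Il23a lay inside the 1.5-fold limits, at -0.46 (-0.89 to -0.05). The level within the carrying cells is given gene by gene.

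**Figure D2:**
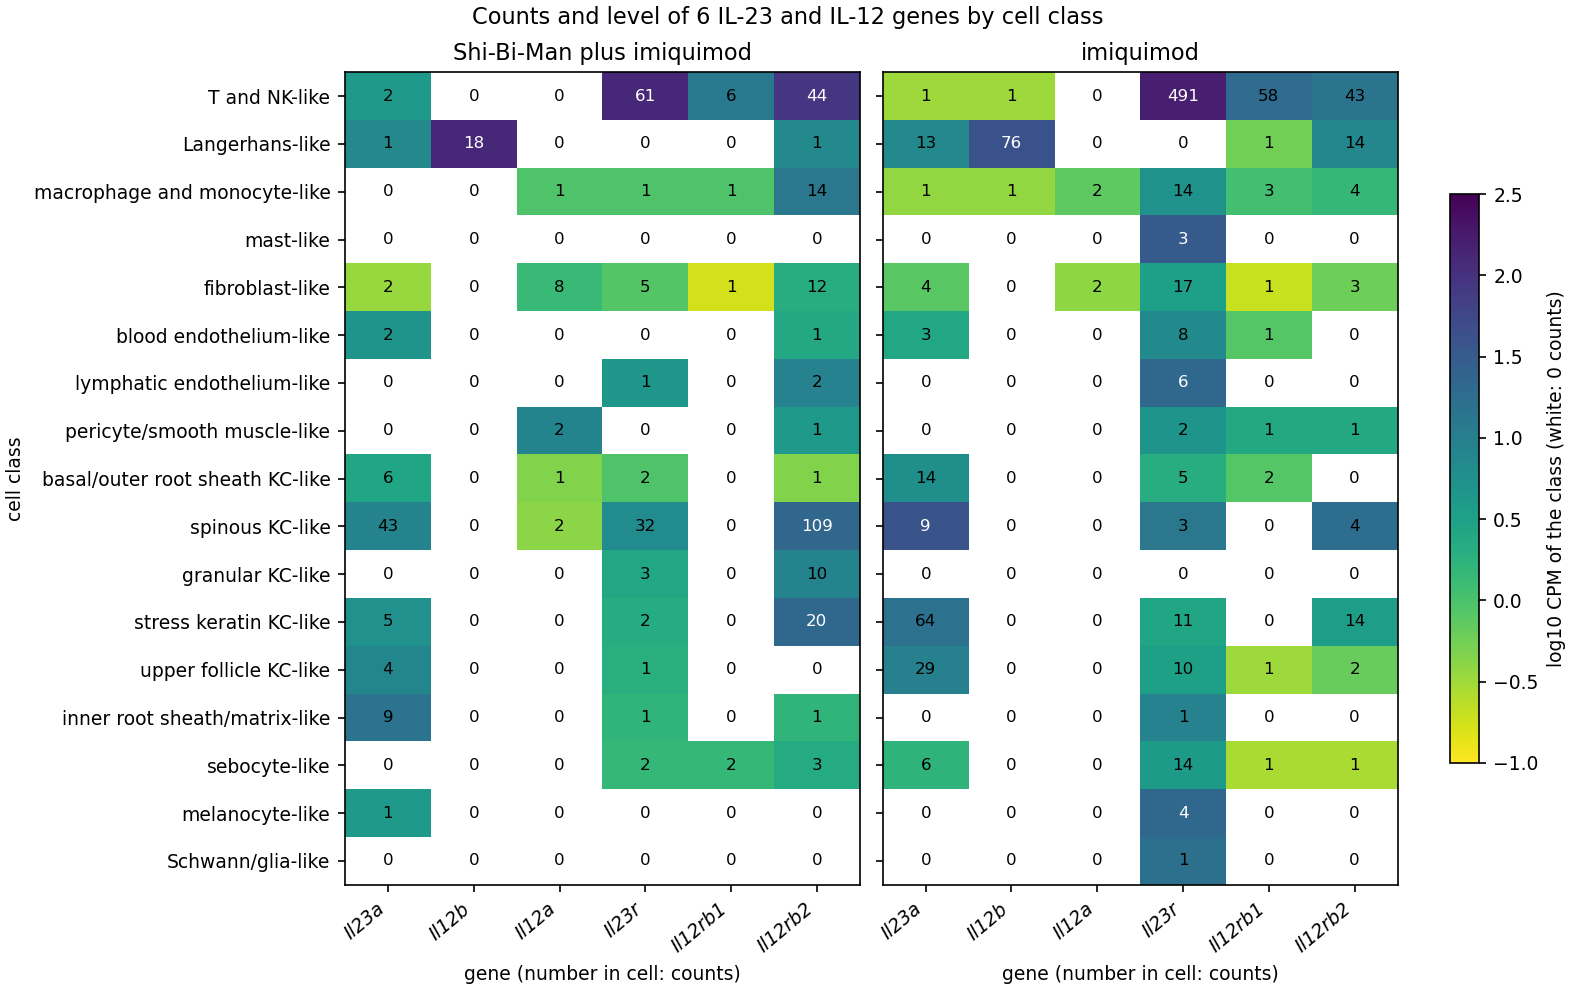
Counts (numbers) and level (colour, log10 CPM of the class) of the 6 genes in 17 cell classes, with Shi-Bi-Man plus imiquimod on the left and imiquimod on the right, KC standing for keratinocyte. T and NK-like cells hold 61 and 491 Il23r counts, and spinous KC-like cells hold 109 and 4 Il12rb2 counts.

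Il23a, the chain that is specific to IL-23, was found chiefly in keratinocyte-like cells in each library. They held 58 of 75 counts (77.3%) with Shi-Bi-Man plus imiquimod and 116 of 144 (80.6%) with imiquimod. Its level in the pooled keratinocyte-like cells was 5.94 CPM with Shi-Bi-Man plus imiquimod and 11.8 CPM with imiquimod, a log2 ratio of -0.99 (-1.47 to -0.53). By kind, spinous-like cells had 43 and 9 counts, stress keratin cells 5 and 64, upper hair follicle-like cells 4 and 29, and basal and outer root sheath-like cells 6 and 14. The 9 spinous-like counts with imiquimod all came from 1 cell. The largest number of Il23a counts in any cell was 4 with Shi-Bi-Man plus imiquimod and 9 with imiquimod, and 48 and 71 of the carrying cells had a single count. Inner root sheath and hair matrix-like cells added 9 and 0 counts, in 169 and 51 cells.

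The lower Il23a level in keratinocyte-like cells was not firm. Among keratinocyte-like cells without a count of any of 11 T-cell or leukocyte markers, Il23a stood at 6.54 CPM with Shi-Bi-Man plus imiquimod and 7.91 CPM with imiquimod, and the log2 ratio was -0.28 (-0.96 to 0.42). Such markers were present in 33.3% of the 45 carriers with Shi-Bi-Man plus imiquimod and 56.8% of the 74 carriers with imiquimod, against 25.7% and 37.5% of the other keratinocyte-like cells. Carriers were deeper than the rest, with medians of 4557 and 6642.5 counts, against 3032 and 3375. After each cell was thinned to 500 counts, which left out none, Il23a was found in 0.226% (0.0829 to 0.490) and 0.320% (0.129 to 0.658) of keratinocyte-like cells, against 0 of 2722 and 0.0858% of fibroblast-like cells. The 0 allows a share of up to 0.110%. Before thinning the shares were 1.69% and 3.38% in keratinocyte-like cells, against 0.0735% and 0.172% in fibroblast-like cells, whose medians were 1895.5 and 1878 counts. Within the stress keratin kind the ratio was -1.43 (-3.22 to -0.25), on 5 and 64 counts, and it changed sign when cells were grouped with other settings, so it is not read. In this kind 21.4% of 10478 tested genes were at least 1.5-fold higher and 15.3% lower.

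Antigen-presenting cells held little Il23a. Macrophage and monocyte-like cells had 0 and 1 counts in 760 and 1570 cells, where 0 allows up to 0.395% of cells. Langerhans-like cells had 1 and 13 counts, at 7.02 and 7.13 CPM, which is close to the keratinocyte level, and the interval of their ratio ran from -5.43 to 2.71. The Langerhans-like counts with imiquimod lay in 7 of 600 cells.

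Il12b, the p40 chain of both cytokines, was carried almost wholly by mature dendritic-like cells, a group of 5 and 44 cells within the Langerhans-like class. It is led by Il12b itself, Apol7c and Il4i1, and also has Ccr7, the chemokine receptor that guides dendritic cells to lymph nodes, Fscn1 and Ccl22. Il12b was not among the 13 markers used to name this group. Because it could help to form the group, its height there is a description only. The cells were clustered again without the 6 genes and the listed pathway genes and again gave a mature dendritic-like group of 49 cells. In these cells Il12b was found in 2 of 5 with Shi-Bi-Man plus imiquimod and 8 of 44 with imiquimod. The carrying cells with Shi-Bi-Man plus imiquimod had 17 and 1 counts. Those with imiquimod in this group had 31, 14, 10, 10, 6, 2, 2 and 1 counts. Outside it lay 2 counts, both with imiquimod, in 1 conventional dendritic 2-like cell and 1 IL-17-type gamma delta T-like cell.

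**Figure D3:**
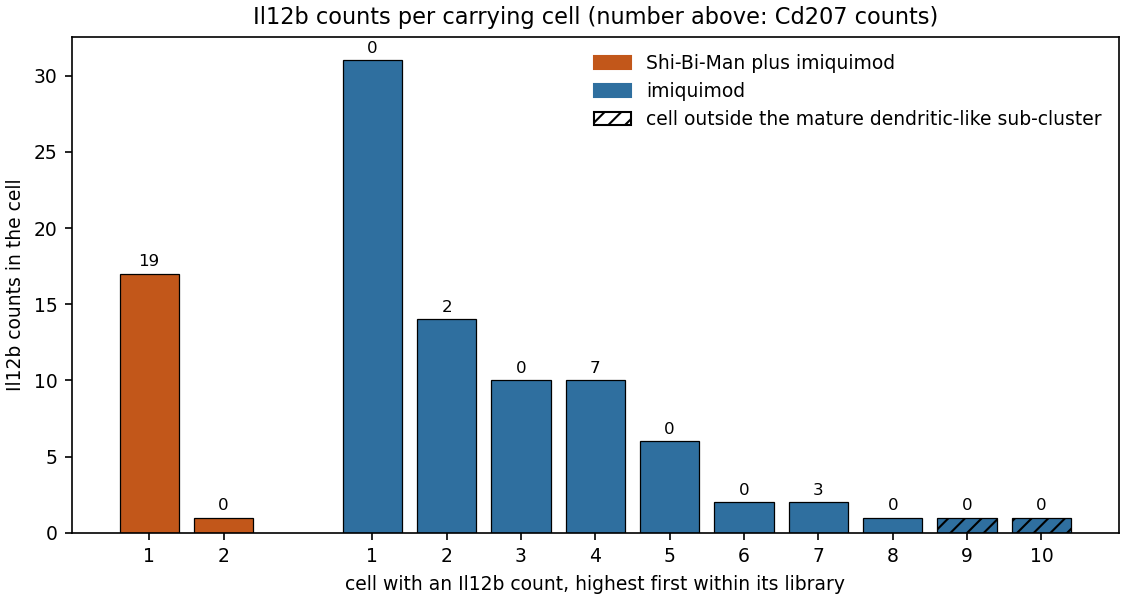
Il12b counts (vertical axis) in each of the 2 and 10 cells that carried it, highest first within each library, with the cell's Cd207 counts above the bar. A single cell holds 17 of the 18 counts with Shi-Bi-Man plus imiquimod, and the 2 hatched cells lie outside the mature dendritic-like group.

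A single cell therefore held 94.4% of the Il12b counts with Shi-Bi-Man plus imiquimod and 39.7% with imiquimod, so the counts are not independent. The Langerhans-like class had 126 CPM with Shi-Bi-Man plus imiquimod and 41.7 CPM with imiquimod (log2 ratio 1.63, 0.77 to 2.36), opposite to the whole-library value of -1.61, and no direction is read from either. The share of all retained cells with Il12b was 0.0254% (0.00308 to 0.0919) with Shi-Bi-Man plus imiquimod and 0.0908% (0.0435 to 0.167) with imiquimod, and these intervals overlap. The 17-count cell also had 19 counts of Cd207, the langerin gene of Langerhans cells, and 6 of 13 mature dendritic markers. Of the 10 carriers with imiquimod, 3 had Cd207, with 2, 7 and 3 counts. Summed Langerhans markers in the mature dendritic-like cells stood at 89203 and 91549 CPM, against 162015 and 153305 CPM in the 56 and 478 cells of the Langerhans-like kind itself. The Langerhans list includes the antigen-presentation genes Cd74, H2-Aa and H2-Eb1, so these sums do not measure Langerhans identity alone. The part of RNA from neighbouring cells in these sums was not tested.

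Il12a, the p35 chain specific to IL-12, was too rare for a pattern. Fibroblast-like cells held 8 and 2 counts, in 6 of 2722 and 2 of 2330 cells. Of the other 6 counts with Shi-Bi-Man plus imiquimod, spinous-like cells had 2, pericyte and smooth muscle-like cells 2, basal and outer root sheath-like cells 1, and the macrophage and monocyte-like class 1, in a cell that grouped with IL-17-type gamma delta T-like cells on finer clustering. With imiquimod the other 2 counts were in 1 monocyte and inflammatory macrophage-like cell. No T and NK-like or Langerhans-like cell had a count in either library. The whole-library log2 ratio of 2.16 (0.61 to 4.34) rests on 14 and 4 counts.

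No retained cell had counts of both chains of either cytokine. Il12b was seen in 0 of 59 Il23a carriers with Shi-Bi-Man plus imiquimod and 0 of 95 with imiquimod, which leaves upper bounds of 6.06% and 3.81%. It was seen in 0 of 11 and 0 of 3 Il12a carriers. Mature dendritic-like cells had 0 Il23a counts in each library. At 1 to a few counts per carrier a chain can be missed in a cell that makes it, so the absence of overlap is limited by depth.

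Il23r, the chain specific to the IL-23 receptor, was concentrated in the IL-17-type gamma delta T-like cells, which carry Il17a, Il17f and Blk. They had 61 and 474 Il23r counts in 219 and 1799 cells. Per class total their level was 270 CPM with Shi-Bi-Man plus imiquimod and 215 CPM with imiquimod, a log2 ratio of 0.34 (-0.08 to 0.72). The lower value over the whole library was thus not found within this kind, whose cells were fewer with Shi-Bi-Man plus imiquimod. Il23r is itself among the markers that named these cells. It was found in 18.7% of them in each library, and in 9.59% (6.03 to 14.3) and 10.01% (8.66 to 11.5) after thinning to 500 counts. Fibroblast-like cells had it in 0.184% and 0.515% before thinning and in 0.0367% and 0.0858% after. T and NK-like cells had medians of 779.5 and 1006.5 counts.

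The same held in the groups that make up the IL-17-type gamma delta T-like cells. The group led by Myo16, Fyco1 and Spef2 had 362 and 313 CPM, that led by Ccr6, Il17f and Tnfrsf25 230 and 190 CPM, and that led by Calca, Trgv6 and Cd163l1 216 and 225 CPM. The intervals of all these ratios span 0. A dividing group, led by histone genes, had 1 and 52 counts in 9 and 180 cells. Other T cells had little Il23r, with 0 and 7 counts in alpha beta T-like cells and 0 and 4 in dendritic epidermal T-like cells. In T and NK-like cells as a whole the level was 124 and 160 CPM, a log2 ratio of -0.36 (-0.77 to 0.02).

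Il23r was also set against Il17a, the cytokine gene that IL-23 sustains, in the same cells. In IL-17-type gamma delta T-like cells there were 8.36 Il23r counts per 100 Il17a counts with Shi-Bi-Man plus imiquimod (6.33 to 10.9) and 2.96 with imiquimod (2.70 to 3.25). Outside T cells, fibroblast-like cells had 26.3 per 100 Il17a (7.68 to 72.9) with Shi-Bi-Man plus imiquimod and 3.09 (1.78 to 4.99) with imiquimod, and T and NK-like cells had 7.68 and 2.98. Keratinocyte-like cells were above their own library's T and NK-like cells, at 138 per 100 Il17a (83.4 to 231) with Shi-Bi-Man plus imiquimod and 8.38 (5.53 to 12.3) with imiquimod.

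Keratinocyte-like cells held 40 and 29 Il23r counts, at 4.10 and 2.96 CPM, and the interval of the ratio spans 0 (0.46, -0.26 to 1.21). With Shi-Bi-Man plus imiquimod 32 of the 40 were in 25 of the 1263 spinous-like cells. Of these, 16 counts lay in 14 of 313 cells of a cluster led by Lsmem1, Serpinb10 and Tango6, at 23.4 CPM. The main spinous-like cluster, with 950 cells, had 16 counts at 3.74 CPM. The smaller cluster had 4 of 8 spinous markers. A cluster with the same 3 leading genes was named basal when the listed genes were left out of the clustering. In spinous-like cells without any of the 11 T-cell or leukocyte markers the level was 7.77 CPM, on 22 counts, against 6.44 CPM in all of them. The imiquimod library had only 82 spinous-like cells, with 3 counts. After thinning, 0.475% (0.174 to 1.03) of the spinous-like cells with Shi-Bi-Man plus imiquimod had Il23r, against 0.0367% of fibroblast-like cells.

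Il12rb1, the chain common to both receptors, was found mainly in T cells and was the scarcest receptor gene. T and NK-like cells held 6 of 10 counts with Shi-Bi-Man plus imiquimod and 58 of 69 with imiquimod, at 12.2 and 18.9 CPM. The log2 ratio was -0.53 (-2.13 to 0.58), so no difference was detectable at this depth. IL-17-type gamma delta T-like cells had 1 and 52 counts, at 4.43 and 23.5 CPM (-1.84, -7.74 to 0.13). The 8 carriers with Shi-Bi-Man plus imiquimod comprised 5 T and NK-like cells (1 of which grouped with follicle keratinocytes on finer clustering), 1 sebocyte-like cell, 1 macrophage-like cell and 1 fibroblast-like cell. Il12rb1 and Il23r were seen together in 1 of 41 Il23r carriers and 9 of 336 Il23r carriers among IL-17-type gamma delta T-like cells. That is 2.44% (0.0617 to 12.9) and 2.68% (1.23 to 5.02), where the cells without Il23r had Il12rb1 in 0% and 2.46%.

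Il12rb2, the chain that is specific to the IL-12 receptor, was higher with Shi-Bi-Man plus imiquimod in the T and NK-like class. Within that class the higher level was seen in dendritic epidermal T-like cells but not in every group. T and NK-like cells had 44 counts at 89.7 CPM with Shi-Bi-Man plus imiquimod and 43 counts at 14.0 CPM with imiquimod, a log2 ratio of 2.68 (2.04 to 3.32). Most of the counts lay in dendritic epidermal T-like cells, with 36 and 29 counts in 140 and 326 cells. The name is that of gamma delta T cells that live in mouse epidermis, but not every group under it had a gamma delta marker. Their level was 352 CPM with Shi-Bi-Man plus imiquimod and 79.3 CPM with imiquimod, a log2 ratio of 2.14 (1.40 to 2.91). After thinning to 500 counts 12.1% (7.24 to 18.7) and 5.21% (3.07 to 8.22) of them had Il12rb2, and these intervals overlap. Before thinning 17.9% and 8.28% of them had Il12rb2. Fibroblast-like cells had it in 0.0735% and 0 of 2330 after thinning, which allows up to 0.129%, and in 0.294% and 0.0858% before.

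The mix of these cells differed between libraries, and its part in the values above was not tested. The group led by Avil, Mest and Prox2 had 123 cells in each library, with 36 and 16 counts, at 414 and 168 CPM (1.28, 0.42 to 2.25). The group led by Gzmc, Cd160 and Klra1 had 17 and 203 cells, with 0 and 13 counts. Trdc, a gamma delta T-cell receptor gene, was among the supporting markers of the group led by Avil but not of the group led by Gzmc. Il12rb2 is itself among the 10 leading genes of the group led by Avil. Alpha beta T-like cells had 4 and 10 counts, at 56.2 and 40.7 CPM (0.56, -1.66 to 2.26), and natural killer-like cells had 3 and 2 counts in 27 and 19 cells. IL-17-type gamma delta T-like cells had 0 and 2 counts. In the clustering of all cells, the T-cell cluster led by Ccl5, Gzmc and Ms4a4b had 40.6 and 38.3 CPM (0.16, -1.36 to 1.33). Among T and NK-like cells, 0 of 41 Il23r carriers with Shi-Bi-Man plus imiquimod also had Il12rb2 (0%, up to 8.60), against 6.82% (4.71 to 9.50) of the cells without Il23r. With imiquimod it was 2 of 350 (0.571%, 0.0693 to 2.05), against 1.66% (1.17 to 2.29). The intervals overlap in each library, so a separation among single carrier cells was not detectable at this depth. By kind the counts lay apart. IL-17-type gamma delta T-like cells had 61 and 474 Il23r counts beside 0 and 2 of Il12rb2. Dendritic epidermal T-like cells had 0 and 4 Il23r counts beside 36 and 29 of Il12rb2.

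Outside lymphoid cells, most Il12rb2 counts with Shi-Bi-Man plus imiquimod were in suprabasal keratinocytes, with 49.8% of the library's counts in spinous-like cells. With imiquimod the Langerhans-like and the stress keratin cells held 16.3% each and the spinous-like cells 4.65%. Keratinocyte-like cells had 140 counts at 14.3 CPM with Shi-Bi-Man plus imiquimod and 20 counts at 2.04 CPM with imiquimod, a log2 ratio of 2.78 (2.13 to 3.57). The mix of kinds differed between libraries, and its part in this value was not tested. Spinous-like cells had 109 and 4 counts in 1263 and 82 cells, at 22.0 and 17.3 CPM, and the interval of this ratio spans 0 (0.18, -1.05 to 2.24). Granular-like cells had 10 counts in 189 cells with Shi-Bi-Man plus imiquimod and 0 in the 1 such cell with imiquimod. Basal and outer root sheath-like cells had 1 and 0 counts, in 766 and 757 cells. The stress keratin cells had 20 and 14 counts, at 21.5 and 3.45 CPM (2.63, 1.58 to 3.74), with 306 and 774 cells. This value kept its sign where that kind was found again with other settings, although its interval then spanned 0 at Leiden resolution 2 and with 20 principal components.

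Counts of T-cell and leukocyte markers were looked up in the keratinocyte-like carriers. Of the 82 spinous-like carriers with Shi-Bi-Man plus imiquimod, 43.9% (33.0 to 55.3) had a T-cell or leukocyte marker, against 31.8% (29.2 to 34.6) of the 1181 others, at medians of 4645.5 and 3671 counts. Spinous-like cells without any such marker had Il12rb2 at 21.2 CPM, against 22.0 CPM in all of them. Over all keratinocyte-like cells without such markers the log2 ratio was 2.34 (1.503 to 3.40). After thinning, 0.790% (0.490 to 1.20) and 0.137% (0.0283 to 0.4004) of keratinocyte-like cells had Il12rb2. Keratinocyte-like cells had no Il12rb1 in any of their 103 and 18 Il12rb2 carriers, and 1 of the 32 Il23r carriers with Shi-Bi-Man plus imiquimod also had Il12rb2.

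The strand used in counting is not given in the sources used here, so reads of Serbp1, an mRNA-binding protein gene, could enter the Il12rb2 counts where they overlap. Serbp1 stood at 894 and 887 CPM in spinous-like cells, 906 and 829 CPM in basal and outer root sheath-like cells, and 646 and 577 CPM in T and NK-like cells. Per 1000 Serbp1 counts there were 24.5 and 19.5 Il12rb2 counts in spinous-like cells, 0.502 and 0 in basal and outer root sheath-like cells, and 474 and 116 in dendritic epidermal T-like cells. No count by strand or position was made, and the part of Serbp1 reads in the Il12rb2 counts was not tested.

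Macrophage and monocyte-like cells had 14 and 4 Il12rb2 counts, in 11 of 760 and 4 of 1570 cells. The level was 12.95 CPM with Shi-Bi-Man plus imiquimod and 1.49 CPM with imiquimod (3.002, 1.45 to 5.18). Langerhans-like cells had 1 and 14 counts, at 7.02 and 7.67 CPM (0.41, -5.53 to 2.59).

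**Figure D4:**
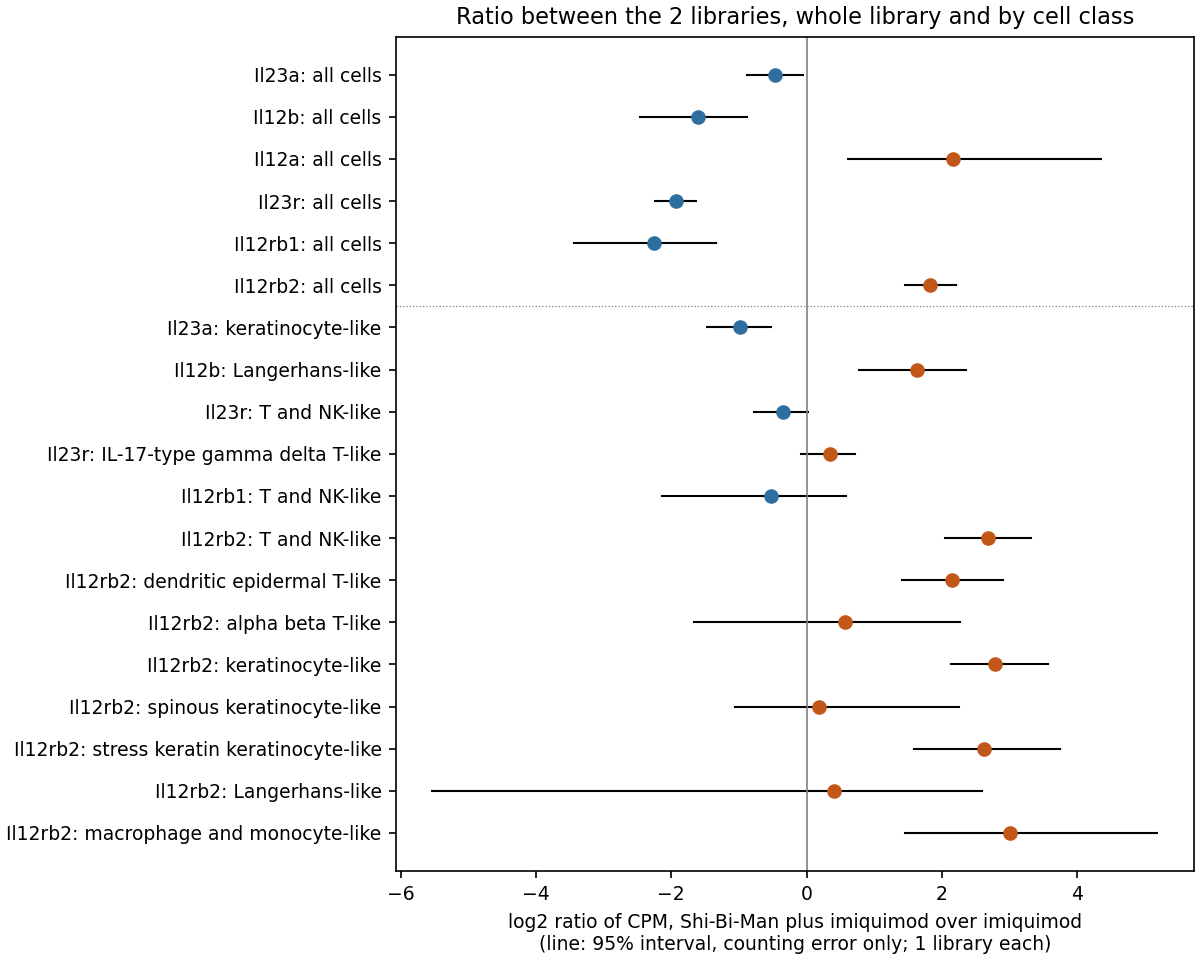
Log2 ratio of CPM, Shi-Bi-Man plus imiquimod over imiquimod (horizontal axis), for the 6 genes over all cells (above the dotted line) and in main carrying classes, some nested in others (below it), with lines for the 95% counting interval. Il12rb2 lies at 2.14 in dendritic epidermal T-like cells but at 0.18 in spinous-like cells, 0.56 in alpha beta T-like cells and 0.41 in Langerhans-like cells, whose intervals span 0, and Il23r is at -1.93 over all cells and 0.34 in IL-17-type gamma delta T-like cells.

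Genes downstream of the receptors were read in T and NK-like cells from 2 lists. Of 15 genes that IL-23 sustains in type 17 cells, 1 was at least 1.5-fold higher and 8 lower, with a median log2 ratio of -0.63. Of all 10487 genes tested in this class, 19.3% were higher and 16.1% lower, and their median was 0.03. The lowest were Il22, the epithelial cytokine, at 57.1 and 349 CPM (-2.59), Il17a (-1.73) and Il17f (-1.495). Csf2, which encodes GM-CSF, was the gene above the limit, at 139 and 59.0 CPM (1.24, 0.81 to 1.64). Rora, a nuclear receptor gene of the list, had 581 and 585 CPM (-0.01).

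The class also held fewer IL-17-type gamma delta T-like cells with Shi-Bi-Man plus imiquimod than with imiquimod, and the same list was read within them. There 2 of the 15 genes were above the limit and 5 below it, and the median was -0.33. The background was 23.2% higher and 18.8% lower among 9146 tested genes. Il17a stood at 3234 and 7240 CPM (-1.16, -1.27 to -1.06), Il17f at 2237 and 4108 CPM (-0.88) and Il22 at 120 and 406 CPM (-1.74). Csf2 was again higher there, at 191 and 70.6 CPM (1.44).

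Type 1 genes, which IL-12 favours, showed the other direction in T and NK-like cells. Of 14 genes, 10 stood above the 1.5-fold limit and 1 below it, and the median was 1.26. For the 10487 genes tested in this class, 19.3% passed the limit upwards and 16.1% downwards (median 0.03). The 10 include Eomes, on 4 and 16 counts, whose interval spans 0 (0.77, -1.40 to 2.28). Gzma, a granule protease gene, had 837 and 71.4 CPM (3.55), and the chemokine gene Ccl5 4149 and 604 CPM (2.78). Ifng, which encodes interferon gamma, had 157 and 39.5 CPM (1.99). Gzma and Ccl5 are among the leading genes of the natural killer-like cells, which numbered 27 and 19. The whole class numbered 510 and 2516 cells, and the part of natural killer-like cells in these values was not tested. Tbx21, the T-bet gene, had 65.2 and 34.9 CPM (0.92, 0.28 to 1.48). Cxcr6 was the gene that was lower (-0.99).

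The cells with the most Il12rb2 were read by themselves. Within dendritic epidermal T-like cells 3 of 11 measured type 1 genes were above the limit and 6 below it, and the median was -0.72. The background was 19.8% higher and 25.4% lower among 4112 tested genes. Prf1, the perforin gene, stood at 352 and 161 CPM (1.13) and Xcl1 at 4054 and 2148 CPM (0.92), while Ccl5 stood at 39.1 and 699.7 CPM (-3.995) and Ifng at 39.1 and 137 CPM (-1.65). Cxcr3, a chemokine receptor gene of type 1 cells, had 0 and 29 counts. The group led by Gzmc, Cd160 and Klra1 made up 17 of the 140 and 203 of the 326 dendritic epidermal T-like cells. The part of this mix in the values within the kind was not tested. Within alpha beta T-like cells 7 of 12 stood above the limit and 1 below it (median 0.78), against 15.5% higher and 22.2% lower among 2812 tested genes. The mix of cell kinds in the class moves with these values, and its part was not tested.

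**Figure D5:**
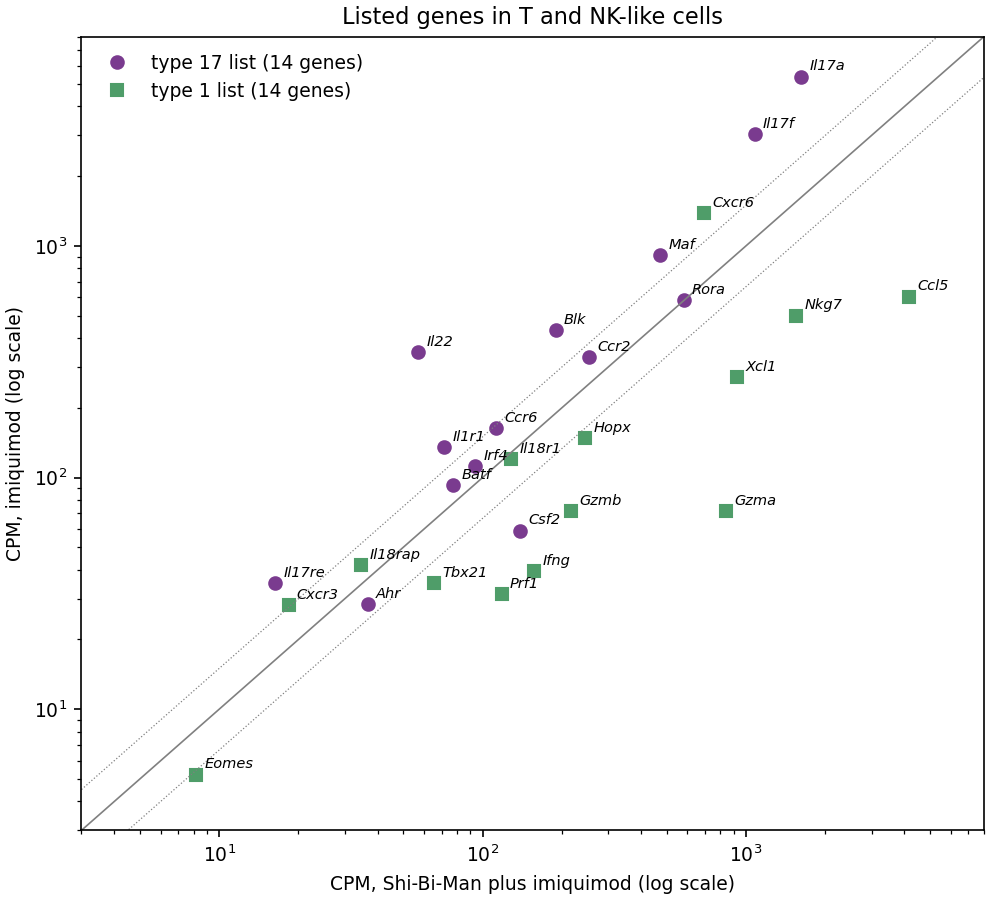
CPM of 14 of the 15 type 17 genes and of the 14 type 1 genes in T and NK-like cells, Shi-Bi-Man plus imiquimod on the horizontal and imiquimod on the vertical log axis, with dotted lines at 1.5-fold. Il22, Il17a and Il17f lie above the lines and Gzma, Ccl5 and Ifng below them.

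Of 9 signalling genes below both receptors, 2 were higher in T and NK-like cells and 0 lower, a share near the 19.3% of all genes tested there, and 1 was higher under median-of-ratios or TMM factors. The 2 were Stat4, the transducer of IL-12 signals, at 38.7 and 18.6 CPM (1.08, 0.23 to 1.83), and the kinase gene Jak2 (0.68). Stat3, the transducer of IL-23 signals, had 346 and 239 CPM (0.54, 0.28 to 0.78), and Tyk2 had 20.4 and 20.9 CPM (0.02). Among 3 measured genes of related cytokines and receptors, Il27ra, the IL-27 receptor gene, was lower at 46.9 and 87.8 CPM (-0.88, -1.59 to -0.29), and Ebi3 had 1 and 22 counts (-1.26, -7.18 to 0.81).

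In macrophage and monocyte-like cells, 2 of 12 measured inducers of the cytokine chains were higher and 0 lower, where 13.7% and 11.6% of 10560 tested genes were higher and lower. They were Irf1, a transcription factor gene needed for Il12a and Il12b induction, at 198 and 105 CPM (0.92), and Tlr7, the receptor of imiquimod, at 77.7 and 42.0 CPM (0.89, 0.46 to 1.31). The NF-kB gene Rel, which IL-12 and IL-23 chains depend on, had 250 and 244 CPM (0.04). Of the signalling genes, Socs1 (0.81) was higher and Cish (-0.76) lower. Il6st, the gp130 gene, was higher (1.14).

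In keratinocyte-like cells, 0 of 13 measured genes of the type 17 response were above the limit and 6 below it, and the median was -0.56. The background was 14.3% higher and 12.2% lower among 14333 tested genes. S100a8, an antimicrobial calprotectin chain, stood at 21.5 and 2336 CPM (-6.76), S100a9 at 19.4 and 1226 CPM (-5.98) and Lcn2 at 5.12 and 96.8 CPM (-4.23). The mix of kinds moved with these values: stress keratin cells, whose cluster is led by Krt6b, S100a9 and S100a8, were 306 of 2659 and 774 of 2187 keratinocyte-like cells, and the part of the mix was not tested. Fibroblast-like cells had S100a8 at 3.62 and 95.3 CPM and Lcn2 at 1.73 and 57.2 CPM, and the part of RNA from other cells in the keratinocyte values was not tested. Ccl20, the chemokine that draws Ccr6-bearing T cells, had 73.2 and 58.7 CPM (0.32, 0.16 to 0.48). Of 8 signalling genes Cish was higher (0.69), and of 10 inducers Irf4 (-1.05) and Batf3 (-0.73) were lower, on 20 and 42 and on 10 and 17 counts.

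The genes most like each member over 26 clusters were named by Pearson's correlation of log2(CPM + 1), as a description, with clusters sharing libraries and depth. Il23a was closest to Lama3 (r = 0.80), Plek2 and Dsg3, the last a desmosomal cadherin of keratinocytes. Il12b was closest to H2-M5 (0.84), H2-M2 and Ccl22. Il23r was closest to Cd163l1 (0.79), Tex2 and Trgv2, a gamma chain gene segment. Il12rb1 was closest to Saraf (0.90), and Ctsw was also among its closest genes. Il12rb2 was closest to Xcl1 (0.73), Klrd1 and Trat1. With 40 clusters the 3 genes for Il12rb2 were again the closest, 2 of 3 were for Il12b, and none were for Il23a, Il23r or Il12rb1. Il12a had too few counts for a comparison.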

How the data were processed

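The deposited matrices hold whole-number counts per gene and cell barcode for 2 libraries, and no barcode has fewer than 500 counts. GRCm38 and mm10 are the builds named in the submitters' processing notes. The aligner, the counter, the strand setting and whether molecules were collapsed are not given in the sources used here. The 6 genes, the gene lists and the markers were chosen with earlier results of these data known.

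Groups came from the treatment in the labels. Cells had at least 200 genes and at most 20% mitochondrial counts. Doublets were called with Scrublet at an assumed rate of 0.08 and removed, which took out 83 cells with Shi-Bi-Man plus imiquimod and none of the imiquimod cells, where it did not work. Both libraries were clustered together in scanpy 1.11.5 (2000 variable genes, 30 components, 15 neighbours, Leiden resolution 1, seed 0), and immune clusters were clustered again. A name needed 3 markers at least 2-fold higher than in other cells and in at least 10% of the cells of the cluster.

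Counts were summed per class and library and given as CPM. Log2 ratios had 0.5 added to each count, exact conditional binomial intervals, and no value where both counts were at or under 3. Shares had Clopper-Pearson intervals. A 0 was taken to allow 3 counts of the total, which lies below the upper Clopper-Pearson bound. For cells with counts of 2 of the genes, a 0 has the upper Clopper-Pearson bound instead. Genes needed 20 counts for list counts. Named list genes were the 3 highest and 3 lowest past 1.5-fold in a class. Others of known role, such as Stat3, Rel and Ccl20, were chosen after their values were seen. A few listed genes are not reported here by name. The log2 ratio, its interval and the 1.5-fold limit were tested on simulated class totals of T and NK-like and keratinocyte-like cells. Spread between cells was not simulated, and the other steps were not tested in this way. Gene positions came from GENCODE vM21 and promoter windows from RefSeq. The promoter motifs were chosen after the windows were read. Alternatives were other cell filters, clusterings, scalings and thinning depths; leaving out the 5% of cells with the highest doublet scores and keratinocytes with a T-cell marker count were added after seeing the data.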

Additional observations from a re-analysis of the deposited data

How the results depend on the processing

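Of 378 alternative values for 74 results, 348 were classed as the same as reported, 26 as moved and 4 as reversed. The results include shares and list counts, which have no direction, so 348 is not a count of kept directions. The cause of the changes was not tested. Il23a was the least stable gene. Its log2 ratio over all cells was 0.24 as a mean over cells, and in stress keratin cells it was 0.40 with doublets kept, 0.45 at Leiden resolution 2, 0.48 with 20 components and -4.03 at no more than 10% mitochondrial counts. In all keratinocyte-like cells it was -0.48 as a mean over cells and -0.28 without cells holding a T-cell marker, an alternative chosen after seeing the data. The share of Il23a counts in keratinocyte-like cells with Shi-Bi-Man plus imiquimod was 89.3% at resolution 0.5. With at least 500 genes per cell, T and NK-like cells held 10.7% and keratinocyte-like cells 75.3% of the Il12rb2 counts with Shi-Bi-Man plus imiquimod. Without the 5% of cells of highest doublet score, T and NK-like cells held 87.3% of the Il23r counts with imiquimod. Dendritic epidermal T-like cells held 47.7% of the Il12rb2 counts with imiquimod at sub-clustering resolution 0.5. Shares of cells moved with depth. Il23a in keratinocyte-like cells was at 0.633% and 0.681% when thinned to 1000 counts and 1.69% and 3.38% unthinned. Il23r in IL-17-type gamma delta T-like cells was at 23.5% and 17.1% thinned to 1000 counts and 18.7% and 18.7% unthinned. Unthinned Il12rb2 was at 8.28% of dendritic epidermal T-like cells with imiquimod, and at 3.87% and 0.823% of keratinocyte-like cells. In cells with at least 1000 counts, 0% of the Il23r carriers among IL-17-type gamma delta T-like cells had Il12rb1 with Shi-Bi-Man plus imiquimod. In T and NK-like cells, median-of-ratios factors and TMM factors each gave 2 lower type 1 genes and 1 higher signalling gene. With at least 50 counts, 1 related cytokine gene was lower there, and 1 inducer was lower in keratinocyte-like cells. The stress keratin kind gave no value with at least 500 genes per cell, nor for Il12rb2 with doublets kept. No paired analysis was possible because each group is 1 library, and no replicate could be left out.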
